A study of Drosophila melanogaster with 2 samples.

Results

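The 6 genes described here are dnc, rut, Pka-C1, Pka-R1, Pka-R2 and CrebB, a core set of cyclic AMP (cAMP) signalling genes of Drosophila melanogaster, out of 18277 annotated genes. dnc was chosen by its count of optimal peaks in these data, and the other 5 genes by their place in the pathway. All 6 were chosen with earlier results of these data known. A peak was counted for a gene when its summit lay between 5 kb upstream of the gene and the gene's end. By this rule the 6 genes held 8 of the 2241 peaks of the optimal list, 68 of 30000 candidates of the pooled list, 77 of 30000 of replicate 1 and 74 of 30000 of replicate 2. These 4 lists chose the peaks, so the counts and signals are a description.

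The lists come from chromatin immunoprecipitation with sequencing (ChIP-seq) of tailup (tup), an Islet-type LIM-homeodomain transcription factor. The material was whole embryos aged 0 to 24 hours, males and females pooled, of a Tup-GFP line that stably carries tup fused at its C-terminus to GFP. Chromatin was sonicated to between 200 and 800 bp and precipitated with an antibody to GFP, in 2 biological replicates of the same line. They form 1 group, no control condition was analysed here, and whole embryos mix all cell types, so a weak peak in many cells and a strong peak in few cells cannot be told apart. The optimal list is the set of peaks that passed the authors' reproducibility threshold, and it equals the 2241 strongest pooled candidates. Of these peaks, 90.4% had a candidate summit within 100 bp in both replicates. The signal is the authors' value from the peak caller, whose scale differs between lists, so peaks are compared within a list, by signal or by rank from the strongest.

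Cyclic AMP is made by adenylyl cyclases and broken down by phosphodiesterases. It releases the catalytic subunits of protein kinase A from their regulatory subunits, and the freed kinase phosphorylates targets that include transcription factors of the CREB family. In Drosophila the pathway is best known from learning and memory, where dnc and rut were found as mutants that learn poorly. dnc encodes a cAMP phosphodiesterase and rut a calcium-responsive adenylyl cyclase. Pka-C1 encodes the main catalytic subunit of protein kinase A, Pka-R1 and Pka-R2 encode regulatory subunits, and CrebB encodes a CREB-type leucine zipper factor.

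The DNA under the 8 optimal summits is shown because these peaks carry all the optimal signal of the pathway core. Each line holds 101 bases centred on the summit, in dm6 coordinates counted from 1, on the plus strand and read 5′ to 3′ (RefSeq copy of the assembly). Capitals mark any match to 7 motifs searched on both strands: CTAATG as well as TAATTA (homeodomain sites, CTAATG being of Islet type), TGACG (a core of the cAMP response element), GAGAG (Trithorax-like, which binds such repeats), TATCGATA (DREF and BEAF-32), CANNTG (E-box) and AGATAA (zinc finger factors such as serpent).
dnc peak 1, chrX:3188578-3188678: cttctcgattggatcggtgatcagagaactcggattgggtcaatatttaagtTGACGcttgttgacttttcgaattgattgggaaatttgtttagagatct
dnc peak 2, chrX:3205970-3206070: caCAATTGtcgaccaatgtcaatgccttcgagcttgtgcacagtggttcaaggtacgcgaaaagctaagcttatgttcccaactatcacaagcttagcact
dnc peak 3, chrX:3255784-3255884: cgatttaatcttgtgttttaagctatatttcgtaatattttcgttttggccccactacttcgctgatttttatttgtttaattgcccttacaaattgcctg
dnc peak 4, chrX:3294936-3295036: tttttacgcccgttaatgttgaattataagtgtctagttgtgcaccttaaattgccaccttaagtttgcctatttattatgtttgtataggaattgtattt
dnc peak 5, chrX:3310988-3311088: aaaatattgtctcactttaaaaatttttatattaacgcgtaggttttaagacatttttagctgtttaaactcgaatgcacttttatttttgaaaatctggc
dnc peak 6, chrX:3329058-3329158: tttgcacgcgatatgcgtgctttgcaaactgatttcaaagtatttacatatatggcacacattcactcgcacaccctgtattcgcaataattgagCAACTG
Pka-C1 peak 1, chr2L:9700641-9700741: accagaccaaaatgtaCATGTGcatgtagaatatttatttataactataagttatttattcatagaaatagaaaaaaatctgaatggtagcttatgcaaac
CrebB peak 1, chrX:18368237-18368337: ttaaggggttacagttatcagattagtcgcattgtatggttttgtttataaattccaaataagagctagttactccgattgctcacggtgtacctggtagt

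The windows differed in base composition, and no motif was found in all of them. Their GC content ranged from 25.7% (dnc peak 5 and the Pka-C1 peak) to 45.5% (dnc peak 2), where the median was 33.7% over all optimal peaks and 43.6% over the 27759 pooled candidates outside the optimal list. Neither homeodomain site was found in any of the 8 windows, where 13.4% of all optimal windows and 11% of the other candidates held CTAATG or TAATTA. The letters TGACG were found in 1 window, that of dnc peak 1, starting 2 bp right of the summit, where 5.62% of optimal windows and 9.42% of the others held them. CANNTG was found in 3 windows, those of dnc peaks 2 and 6 and of Pka-C1, where 36.7% of optimal windows and 41.8% of the others held it. GAGAG was found in none, where 10.1% of all optimal windows and 11.8% of the others held it. The DREF and BEAF-32 letters were found in none, where 1.43% of optimal windows and 0.497% of the others held them. AGATAA was likewise found in none, where 7.68% of optimal windows and 5.33% of the others held it. The shorter homeodomain core TAAT, added after the data were seen and contained in both homeodomain sites, was in 5 of the 8 windows, where 77.1% of optimal windows and 59% of the others held it. These are matches of letters in 8 short windows and no test was made on them.

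dnc (FBgn0000479, chrX:3176440-3343767, plus strand) held 6 of the 8 peaks. Its region of 172328 bp held 22 pooled candidates, 37 candidates of replicate 1 and 32 of replicate 2. The annotation gives dnc 17 transcripts from 9 start positions, and 3 of the 6 peaks lay just upstream of one of these starts while 3 lay inside introns. The peaks are numbered in the direction of transcription.

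dnc peak 4 was the strongest (chrX:3294884-3295113, 230 bp wide). It had a signal of 356 in the pooled list (rank 76), 221 in replicate 1 (rank 79) and 137 in replicate 2 (rank 85). It thus stood at nearly the same rank in all 3 lists. The replicate summits were 0 and 10 bp from the pooled summit. The summit lay 295 bp upstream of the start of dnc-RE, inside an annotated exon of dnc, and 13 of the 17 transcripts ran across it.

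**Figure D1:**
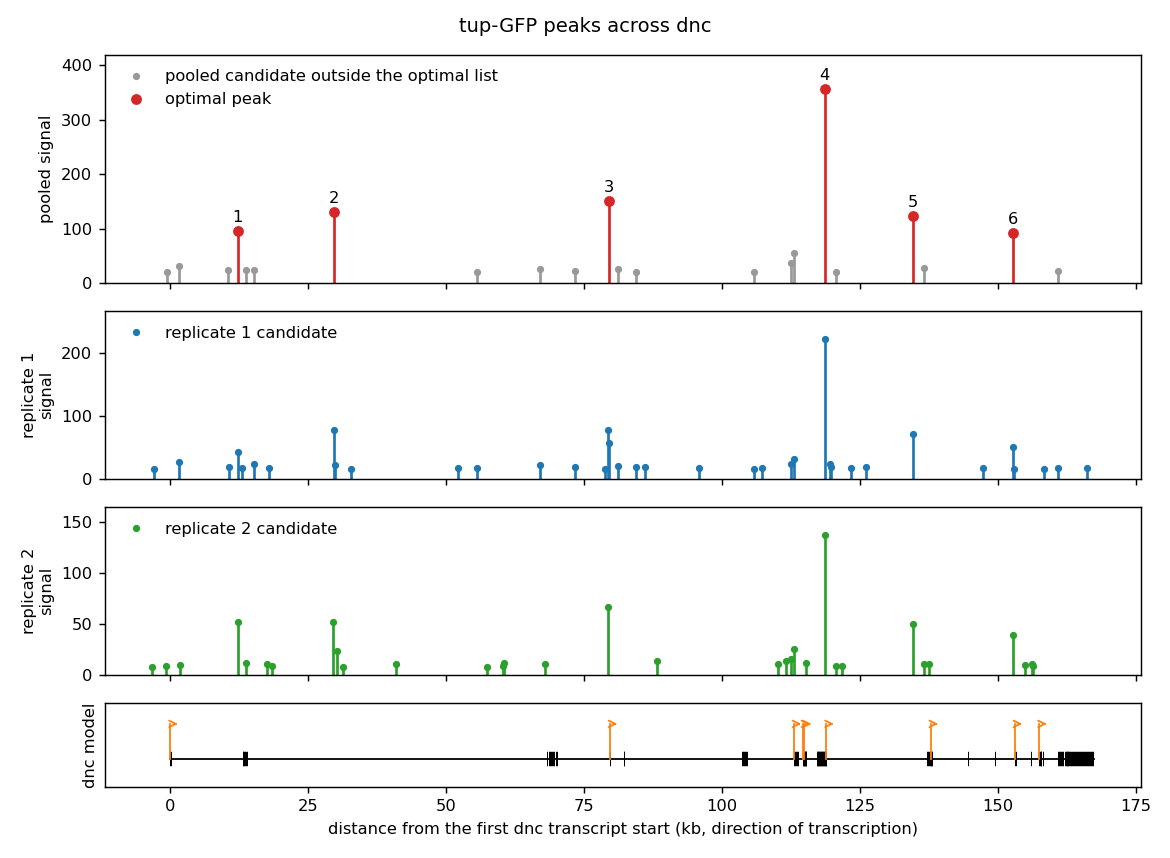
Signal of every candidate summit in the dnc region in the pooled list, replicate 1 and replicate 2 (each with its own signal scale), against distance from the first dnc start in kb, with exons (black) and transcript starts (orange arrows) below. The 6 numbered optimal peaks have pooled signals from 92.4 to 356, above the other 16 candidates at 20.2 to 56.1, and peaks 3, 4 and 6 stand just before a start.

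The other promoter peaks of dnc were peaks 3 and 6. Peak 3 (chrX:3255642-3256025) lay 234 bp upstream of the start shared by dnc-RC, dnc-RD, dnc-RI, dnc-RJ, dnc-RN and dnc-RP, with a pooled signal of 151 (rank 533). Its matching candidate had a signal of 57.6 in replicate 1 (rank 1457) and 66.1 in replicate 2 (rank 428). Replicate 1 split this site, with a second summit of signal 77.4 (rank 820) 396 bp upstream of the same start, too far from the pooled summit to be paired with it. Peak 6 (chrX:3328916-3329299) lay 299 bp upstream of the start of dnc-RF, in a stretch also covered by lncRNA:CR44886, with a pooled signal of 92.4 (rank 1354), 51.3 in replicate 1 (rank 1831) and 39.5 in replicate 2 (rank 1185).

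The 3 promoter summits of dnc in the pooled list stood 234, 295 and 299 bp upstream. Their matching summits lay 197, 295 and 299 bp upstream in replicate 1 and 265, 285 and 331 bp upstream in replicate 2. Over all 1237 promoter summits of the optimal list, the median offset from the nearest start was -107 bp (quartiles -188 and -39 bp, negative meaning upstream), and 14.1% lay 200 to 300 bp upstream. This range encloses the 3 dnc distances of the pooled list, so nothing is read from that share. Of the 9 dnc starts, 3 had an optimal summit within 500 bp, where 8.96% of the 24111 annotated starts of all genes did. Since dnc was chosen by its count of optimal peaks, nothing is read from this difference. The starts without one included the first and longest-reaching start, used by dnc-RB, dnc-RS, dnc-RT and dnc-RU. Its nearest pooled candidate was 579 bp upstream with a signal of 20.2 (rank 29086), close to the lowest signal of the list (19.9). The start of dnc-RQ had a candidate 96 bp downstream that came nearest to the optimal list among the rest of the gene, with a pooled signal of 56.1 (rank 3174), 31.2 in replicate 1 and 25.5 in replicate 2.

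The intronic peaks of dnc were peaks 1, 2 and 5. Peak 1 (chrX:3188436-3188819) lay 12188 bp downstream of the first start and 906 bp from the nearest dnc exon, with a pooled signal of 95.8 (rank 1265). Its signal was 43.1 in replicate 1 (rank 2611) and 52.3 in replicate 2 (rank 714), so it was among the strongest 2241 of replicate 2 and outside those of replicate 1. Peak 2 (chrX:3205828-3206211) lay deepest, 29580 bp downstream of the first start and 15444 bp from the nearest dnc exon. Its pooled signal was 131 (rank 715), with 77.7 in replicate 1 (rank 815) and 51.8 in replicate 2 (rank 729).

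Peak 5 (chrX:3310846-3311229) lay 3141 bp upstream of the start of dnc-RG and 2462 bp from the nearest exon. Its pooled signal was 123 (rank 788), with 71.9 in replicate 1 (rank 952) and 50 in replicate 2 (rank 778). Peaks 2 and 5 thus kept ranks between 715 and 952 in all 3 lists, while peaks 1, 3 and 6 ranked higher in replicate 2 than in replicate 1 by wider steps. Peak 3 is taken here at its paired summit in replicate 1 (rank 1457), and the other summit of that split site ranked 820.

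All 6 dnc peaks had a candidate summit within 100 bp in both replicates, where 90.4% of the 2241 optimal peaks did. Among the strongest 2241 peaks of each replicate 5 of the 6 were found in both, where 55.7% of optimal peaks were. Since dnc was chosen by its optimal peaks with the replicate lists also in view, nothing is read from either comparison. The other 16 pooled candidates of dnc had signals from 20.2 to 56.1 with a median of 24.1, and the lowest optimal signal of all was 68.7. No candidate of dnc therefore lay near the edge of the optimal list.

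The stretch between the first and the second dnc start also holds a block of 7 small genes, CG14265, ng2, ng3, ng1, ng4, Pig1 and Sgs4, which encodes a glue protein of the larval salivary gland. The block spans 14.9 kb (chrX:3236130-3251040). It held 0 optimal summits, 2 pooled candidates, 2 candidates of replicate 1 and 3 of replicate 2. Exons of the transcripts from the first dnc start lie inside the block, between ng4 and Pig1.

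The count of 6 in dnc is given here beside the length of its region, and the bearing of length on it was not tested. Optimal summits in dnc came to 3.48 per 100 kb, where the arms together (138 Mb) had 1.63. A higher value in dnc follows from its choice by this count, so nothing is read from it. Pooled candidates in dnc came to 12.8 per 100 kb, where the arms had 21.8. Of the 98 genes with a region of at least 100 kb, 45 held an optimal summit and 4, dnc included, held 6 or more, and the median was 0. Over all genes, 11 held 6 or more, of which 9 held more than dnc. The genes with 5 to 7 summits whose region was nearest in length to that of dnc were the tyrosine phosphatase gene Ptp61F (5 summits, 138 kb, a log2 length ratio of 0.32 in size), CG32264 (5 summits, 96.6 kb, 0.84) and shn, a zinc finger gene of Dpp signalling (6 summits, 63.3 kb, 1.45). This likeness rests on counts in 1 list made from 2 replicates.

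**Figure D2:**
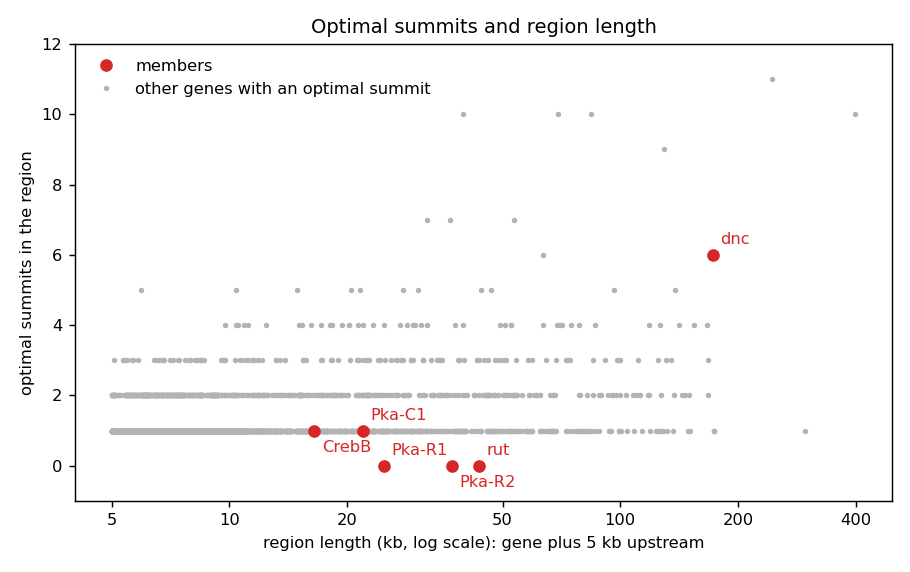
Number of optimal summits in a gene region (y axis) against region length in kb on a log scale (x axis), for the 6 members (red) and for other genes with at least 1 optimal summit (grey). dnc has 6 summits in 172 kb, Pka-C1 and CrebB have 1 each, and rut, Pka-R1 and Pka-R2 have 0.

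Of the 6 members, dnc, Pka-C1 and CrebB held an optimal summit and rut, Pka-R1 and Pka-R2 did not. Over all genes, 20.6% held one. Since dnc was chosen for its peaks and the regions of the members are long (median 31 kb, where that of all genes was 6.64 kb), nothing is read from this share. All 6 members held pooled candidates, as did 80.1% of all genes.

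rut (FBgn0003301, chrX:14787478-14826073, minus strand), the cyclase that opposes dnc in cAMP turnover, held only weak candidates. In its region of 43596 bp there were 7 pooled candidates with signals from 21.2 to 31.2, where the median of the pooled list was 27.3. The strongest (chrX:14825602-14825985) lay 111 bp downstream of the start of rut-RE and rut-RF, with rank 10890. Replicate 1 had a candidate 1 bp away with a signal of 16.5 (rank 25468), and replicate 2 had none within 100 bp. Farther off, replicate 2 had a promoter summit on either side, with signals of 9.88 (rank 19019) and 8.83 (rank 23904). The highest rank of any rut candidate was 9547 in replicate 1 and 15211 in replicate 2. The nearest optimal summit lay 8166 bp beyond the region, 133 bp from the start of CG32590, with a signal of 109.

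Pka-C1 (FBgn0000273, chr2L:9682315-9699297, minus strand) held 1 optimal peak, and it lay at a neighbour's promoter. The peak (chr2L:9700499-9700882) was 1394 bp upstream of the single Pka-C1 start and 119 bp upstream of the start of pelo, a gene for a ribosome rescue factor that is transcribed away from Pka-C1, with 1512 bp between the genes. Its pooled signal was 91.9 (rank 1370). The replicates differed, with a signal of 70.3 in replicate 1 (rank 1002) and 13.1 in replicate 2 (rank 9925), where the median signals of the lists were 20.8 and 11.

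A second candidate stood at the Pka-C1 start itself. It lay 52 bp upstream (chr2L:9699157-9699540) with a pooled signal of 62.4 (rank 2628), just outside the optimal list. Its signal was 41.1 in replicate 1 (rank 2876) and 27.9 in replicate 2 (rank 2116). In replicate 1 the pelo-side peak was the stronger of the pair, and in replicate 2 the Pka-C1-side candidate was. The whole region of 21983 bp held 13 pooled candidates, or 59.1 per 100 kb, the densest of the 6 members. Some of the 13 lay inside pelo, which the 5 kb upstream part of the region reaches.

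Pka-R1 (FBgn0259243, chr3L:20816118-20836048, plus strand) held 0 optimal summits despite 6 annotated starts. Its 7 pooled candidates had signals from 20.7 to 39.3. The strongest (chr3L:20826584-20826967) was intronic, 802 bp downstream of the start of Pka-R1-RS, with rank 6265. Replicate 1 had it at a signal of 32.7 (rank 4745), and replicate 2 had no candidate within 100 bp. The nearest optimal summit lay 12517 bp beyond the region, 44 bp from the start of tzn.

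Pka-R2 (FBgn0022382, chr2R:9993890-10026042, minus strand) missed the optimal list by the smallest margin. Its strongest candidate (chr2R:10013286-10013669) had a pooled signal of 68.5 (rank 2252), where the optimal list ended at 68.7 with 2241 peaks. It lay in an intron, 12564 bp downstream of the Pka-R2 start and 1279 bp upstream of mir-4967, a microRNA gene. Its signal was 45.4 in replicate 1 (rank 2360) and 27.2 in replicate 2 (rank 2223), so both replicates placed it close to the edge. On the inner side of that edge, the weakest optimal peak of a member was that of CrebB with a signal of 89.1. The other 12 candidates of Pka-R2 had pooled signals of at most 39.6.

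CrebB (FBgn0265784, chrX:18366357-18377864, plus strand) held 1 optimal peak, inside the gene. The peak (chrX:18368095-18368478) was intronic, 1726 bp downstream of the start shared by CrebB-RI, CrebB-RJ and CrebB-RO and 1108 bp from the nearest exon, with a pooled signal of 89.1 (rank 1445). Its signal was 40 in replicate 1 (rank 3031) and 51.1 in replicate 2 (rank 752). It was thus stronger by rank in replicate 2, the reverse of the Pka-C1 peak. At the first CrebB start, replicate 2 had a summit of signal 31.4 (rank 1729) 148 bp from the start, and the pooled list had one 157 bp upstream with a signal of 50.2 (rank 3853), outside the optimal list.

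**Figure D3:**
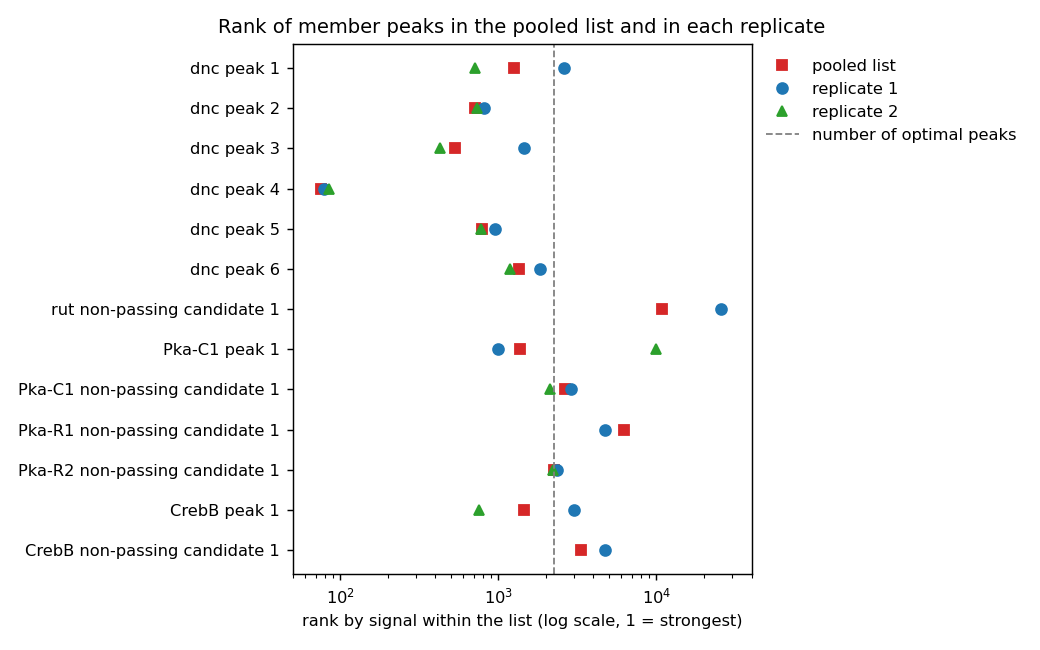
Rank by signal (log scale, 1 is the strongest) of the 8 member optimal peaks and of the strongest other candidate of rut, Pka-C1, Pka-R1, Pka-R2 and CrebB, outside the optimal list (named non-passing), in the pooled list (square), replicate 1 (circle) and replicate 2 (triangle, missing where no candidate lay within 100 bp), with rank 2241 dashed. dnc peak 4 stands at ranks 76 to 85 in all lists, and the Pka-C1 peak at 1002 in replicate 1 and 9925 in replicate 2.

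Each replicate alone gave a somewhat different set of members. Among the strongest 2241 peaks of replicate 1, summits fell in dnc (6) and Pka-C1 (1), where 20.4% of all genes held such a summit. The 6 of dnc in replicate 1 included both summits of the split site at dnc peak 3 and none at dnc peak 1. Among those of replicate 2, they fell in dnc (6), CrebB (2), Pka-C1 (1) and Pka-R2 (1), where 20.1% of all genes did. dnc and Pka-C1 were found in both, though at Pka-C1 the summits were those of pelo in replicate 1 and of Pka-C1 itself in replicate 2. rut and Pka-R1 were found in neither.

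By place, the 8 optimal summits of the members divided evenly, 4 at promoters and 4 in introns. Over all optimal peaks 55.2% were at promoters and 31.4% in introns. Of the 60 other candidates of the members, 16.7% were at promoters, 63.3% in introns and 11.7% in coding exons, where the 27759 such candidates overall had 21.5%, 38.8% and 15%.

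The wider pathway was described with a list of 55 other genes. An optimal summit lay in the region of 16 of them (29.1%), where 20.6% of all genes held one. The regions of the list are longer (median 21.7 kb, where that of all genes was 6.64 kb), and the bearing of length on this share was not tested. The strongest peak of 11 of the 16 was a promoter peak, where 55.2% of all optimal peaks were. For 9 of the 16 the nearest start belonged to the listed gene. In 15 of the 16 the peak had a candidate in both replicates, where 90.4% of all optimal peaks did.

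Among enzymes of cyclic nucleotide turnover, 3 of 9 further adenylyl cyclase genes and 3 of 5 further phosphodiesterase genes held an optimal summit. Over all genes, 20.6% held one. The cyclase gene Ac13E had a peak 181 bp from its own start with a pooled signal of 164 (rank 446, with ranks 489 and 485 in replicates 1 and 2). Ac78C had a signal of 121, 91 bp from its own start, and Ac3 had one of 110 that lay 80 bp from the start of Df31. ACXA was among the cyclase genes without one. Among the phosphodiesterases, the cGMP-specific enzyme gene Pde6 had a peak 262 bp from its own start with a pooled signal of 154 (rank 509).

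Pde1c had a signal of 146 in a coding exon, 2808 bp from the nearest start, that of CycY. Pde11 had an intronic peak of 95.7 whose replicates differed, with rank 1008 in replicate 1 and rank 20475 in replicate 2. Pde8 held none. dnc with its 356 had the strongest peak among the cyclase and phosphodiesterase genes listed, and it was chosen with such values in view.

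Around the kinase, 1 of 2 further catalytic subunit genes and 2 of 5 anchoring protein genes held a summit, where 20.6% of all genes did. Pka-C3 had a peak of 91.4 that lay 22 bp from the start of elgi and 1808 bp from its own, and Pka-C2 held none. The anchor gene rg had a signal of 228 (rank 220), with the summit in an intron of CG32767 and 1980 bp from the nearest rg start. The anchor gene pkaap held 2 optimal summits. The stronger had 175 (rank 388), 77 bp from the start of crp and 483 bp from that of pkaap. Akap200 held none. As at Pka-C1, the strongest peaks of Pka-C3, rg and pkaap stood nearer to the start of a neighbour. That of pkaap was also within 500 bp of its own start.

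Upstream of the cyclases, 1 of 15 receptor genes, 1 of 4 ligand genes and 2 of 6 G protein subunit genes held a summit. Over all genes, 20.6% held one. The counts by role are small, and differences between roles were not tested. The receptor gene was Dh31-R, a diuretic hormone receptor, with a signal of 163 (rank 460) 206 bp from its own start. The dopamine, octopamine, serotonin, adenosine, Pdf and Dh44 receptor genes of the list held none, 5-HT1A first among them by name. The ligand gene was amn, a neuropeptide gene known from memory mutants, with a signal of 138 at 444 bp from its own start, where the gene Hers also spans the summit. Dh31 was the first ligand gene without a summit.

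The G protein genes were Galphao, with 79.3 at 194 bp from its own start, and Galphas, the stimulatory subunit, with 75.3 at 168 bp from the start of Taldo. The Galphao peak had no replicate 2 candidate within 100 bp, and Galphai held none. Among other cAMP effectors 2 of 6 held a summit, where 20.6% of all genes did. They were the cyclic nucleotide-gated channel gene CngA (99.8, 213 bp from its own start) and Ih, a hyperpolarization-activated channel gene (81.7, intronic). Cngl held none. Of 3 CREB cofactors and relatives, nej, the CBP acetyltransferase gene, had an intergenic peak of 151 at 616 bp from its own start and 507 bp from that of lncRNA:CR42657, and CrebA held none.

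**Figure D4:**
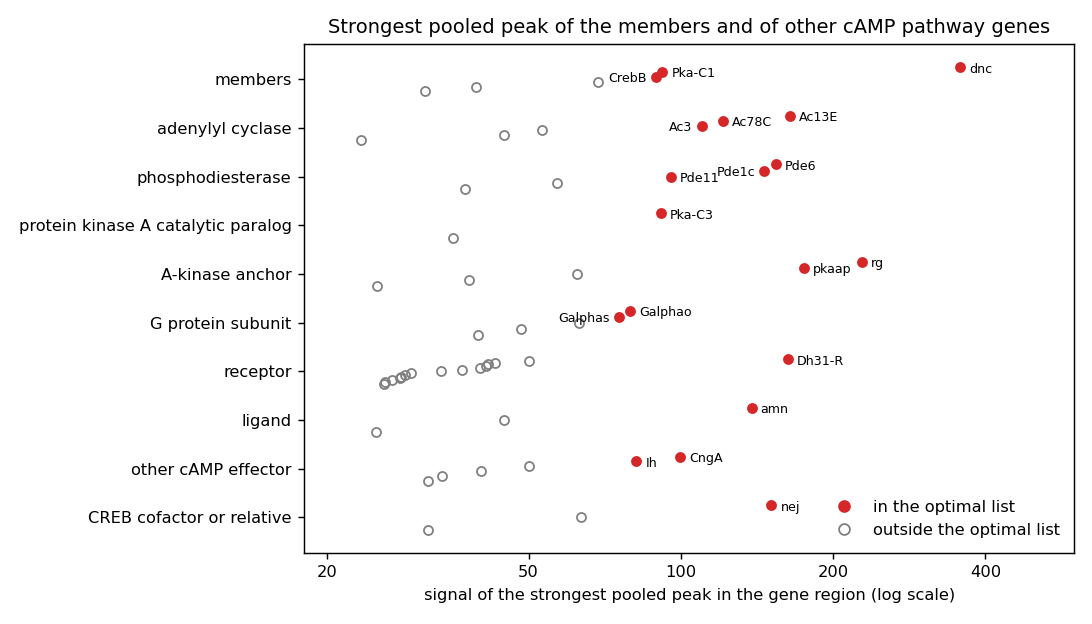
Signal of the strongest pooled peak in each gene region (log scale) for the 6 members and for the other listed cAMP pathway genes by role, with genes in the optimal list filled and named the others hollow, and genes with 0 pooled candidates left out. dnc stands at 356 and the named pathway genes between 75.3 and 228, and 14 of the 15 receptor genes are hollow. Over all genes, 20.6% held an optimal summit, and differences between roles were not tested.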

How the data were processed

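Anti-GFP ChIP-seq of tup-GFP embryos was represented by 4 dm6 peak lists: a candidate list for each of the 2 replicates, a candidate list for both pooled, and the optimal list. The file lists that the authors deposited name ChIP alignments and a further file as the origin of each candidate list, and the replicate and pooled lists as the origin of the optimal list. The aligner, peak caller, versions and reproducibility threshold were not stated in those sources. The peak caller's signal, as deposited by the authors, served to order and characterise peaks inside 1 list. The summit was the deposited offset added to the peak start. Candidates lay on arms of the reference, with 0 past a chromosome end. The lists in dm3 coordinates were not used here. No read totals accompany the lists, so depth is unknown.

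Genes came from Ensembl release 115 (BDGP6.54), without transposable elements, and sequence from the RefSeq copy of the same assembly. A gene region ran from 5 kb upstream of the gene to its end. Summits in different lists were paired when within 100 bp. A summit was classed as promoter when within 500 bp of an annotated transcript start, and otherwise by the exon part it fell in (UTR, coding or non-coding), then as intron, then as intergenic. Motifs were searched on both strands within 50 bp of a summit. Calculations used Python 3.11.15, pandas 2.3.3 and numpy 2.4.6, and the counting of summits in regions was checked against made-up regions.

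The members and the pathway list were chosen with earlier results of these data known. The 2 replicates form 1 group, so no test was made, and counts are given beside the same count over all genes, starts or peaks. Named were the 6 members with their peaks, every other pathway gene with an optimal summit, the first gene in alphabetical order among those of each role without one, and the 3 genes most like dnc. Alternatives covered the upstream distance, the overlap, the signal threshold, the assignment of peaks, each replicate alone, the summit distance, the promoter distance and the motif window. The core TAAT was added after the data were seen.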

Additional observations from a re-analysis of the deposited data

How the results depend on the processing

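Of 34 counts recomputed under other settings, 26 were within 1.5 times of the reported one. At or above the median optimal signal, the members held 4 optimal summits, all in dnc, which was then the 1 member with any, and 10 pathway genes held a summit. Without the upstream part of the region 6 pathway genes held a summit, and with each peak given to its nearest transcript start 9 did. Under either of these settings Pka-C1 lost its only peak, so that 2 members held a summit in place of 3. That change still counted as within 1.5 times. Within 200 bp of a start, 1 of the 8 member peaks was a promoter peak, that at pelo. Over the whole peak interval, 1 of the 8 peaks held CTAATG or TAATTA, that of CrebB, where 33.9% of all optimal intervals and 34.9% of the other candidates did. The core TAAT was within 50 bp of the summit in 5 of the 8. Leaving out each replicate in turn gave 7 to 10 summits, 2 to 4 members with a summit, and 17 pathway genes in both cases. The 7, from replicate 1 alone, counted both summits of the split site at dnc peak 3. The count of dnc peaks with a candidate in both replicates stayed at 6 for distances of 50 and 200 bp and for any overlap of the intervals, and was 5 among the strongest 2241 peaks of each replicate. Depth was not given, so a member outside the optimal list is below its threshold in these libraries and was not shown to lack binding.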
